A study of Bos taurus with 8 samples.

Results

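Small leucine-rich proteoglycans are secreted matrix proteins built around a core of leucine-rich repeats. In cartilage they bind to collagen fibrils, set the spacing and thickness of the fibrils, and hold growth factors such as TGF-β in the matrix. The family is divided into classes. Decorin, biglycan and asporin form class I, and the first 2 of these carry chondroitin or dermatan sulfate chains. Fibromodulin, lumican, PRELP and osteomodulin form class II, whose members can carry keratan sulfate. Osteoglycin and epiphycan belong to class III, and chondroadherin, which carries no such chain, to class IV.

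The 10 family members described here were taken by gene symbol from a table of 24596 bovine genes, and each was present as a single row. The table lists *DCN* (ENSBTAG00000003505), *BGN* (ENSBTAG00000005250), *ASPN* (ENSBTAG00000011847), *FMOD* (ENSBTAG00000014912) and *LUM* (ENSBTAG00000001745). It also lists *PRELP* (ENSBTAG00000017834), *OMD* (ENSBTAG00000011836), *OGN* (ENSBTAG00000011824), *EPYC* (ENSBTAG00000007990) and *CHAD* (ENSBTAG00000021302). All 10 passed the filter on low counts and are among the 12857 genes tested.

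The counts come from RNA-Seq of articular chondrocytes from knee joints of wild-type bovine calves aged 1 to 2 weeks. The superficial slice and the deep slice of the same cartilage cores gave chondrocytes of the superficial zone (SZCs) and of the deep zone (DZCs), respectively, the middle slice being discarded. Both were freed with pronase and collagenase and then kept in serum-containing culture for 3 days, so the values describe cells already outside their matrix. Each zone had 2 libraries, called duplicate biological samples by the study, and which calf or joint each came from is not given in the sources used here.

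Library totals lay between 19918970 and 21890549 counts. The chondrocyte genes *COL2A1*, *ACAN* and *SOX9* were abundant in the 4 libraries, and the 6 superficial zone markers *PRG4*, *CREB5*, *VIT*, *EPHA3*, *WIF1* and *THBS4*, which the study itself named on these samples, were called higher in SZCs. Of 8 chondrocyte genes tested, *MATN3* was called, higher in DZCs (log2 fold change -2.04, FDR 0.0021 by edgeR's exact test), a call lost without either SZC library and under scaling by library totals. *COL2A1* took between 6.31% and 7.18% of counts in SZCs, but 24.5% in DZC replicate 1 and 12.9% in DZC replicate 2. Levels are therefore given as CPM (counts scaled to a common library size) after scaling by trimmed means of *M* values (TMM), which corrects for such differences in composition. The level that 3 counts stand for, used as the limit of detection, lay between 0.129 and 0.187 CPM. Zones were compared with the exact test of edgeR, and p-values were adjusted over the tested genes (FDR, threshold 0.05). Fold changes are given on the log2 scale as SZCs over DZCs, with their standard error (SE).

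The zone difference ran in opposite directions for 2 members of the family. *DCN* was 4.43-fold higher in SZCs and *CHAD* was 3.79-fold higher in DZCs, and these were the members that passed the FDR threshold. Of the 10 members, 2 were called, 1 in each direction, against 2.93% of the tested genes (2.23% higher in SZCs and 0.7% higher in DZCs). The 8 members that did not pass included *EPYC*, with a fold as large as that of *DCN*, and also *BGN*, *FMOD* and *PRELP*. In 4 of the 10 members the libraries of the zones did not overlap, a share close to the 41.5% found over the tested genes. SZCs were above DZCs in *DCN* and *EPYC* (21% of the tested genes) and below them in *PRELP* and *CHAD* (20.5%). The median log2 fold change of the members was -0.22, beside -0.04 for the tested genes. With edgeR's quasi-likelihood test in place of the exact test, 0 of the 12857 genes passed, while 1126 had an unadjusted p below 0.05.

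**Figure D1:**
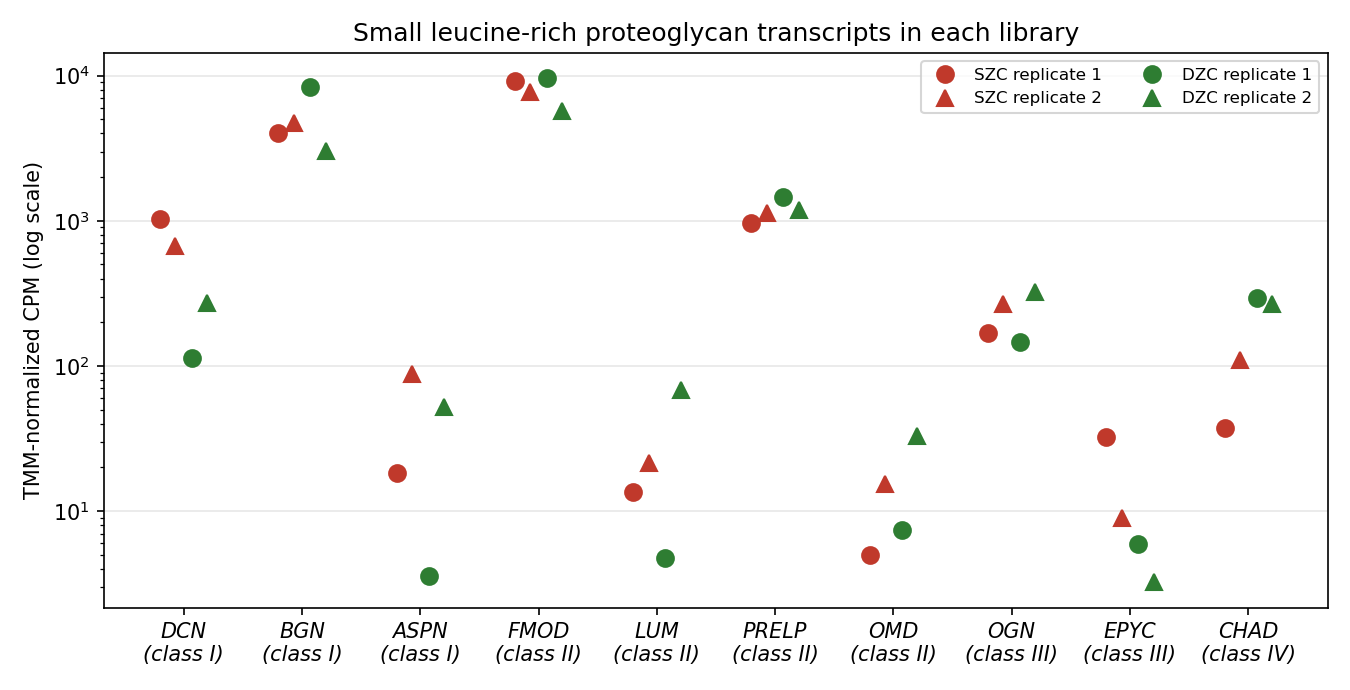
TMM-normalized CPM (log axis) of each family member in the 2 SZC libraries (red) and the 2 DZC libraries (green), with circles for replicate 1 and triangles for replicate 2. For *DCN* both SZC libraries, at 672 CPM or more, lie above both DZC libraries, whereas for *CHAD* both DZC libraries, at 269 CPM or more, lie above both SZC libraries.

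Among class I members, decorin, which decorates collagen fibrils and binds TGF-β, showed the difference that passed the test. *DCN* was at 1028 and 672 CPM in SZC replicates 1 and 2 and at 114 and 270 CPM in DZC replicates 1 and 2. The SZC libraries were the higher pair, and the lower of them still stood above the higher DZC library. On the log2 scale the zone difference was 2.15 (SE 0.54, exact test in edgeR, FDR 0.00804), with a 95% interval from 1.09 to 3.20. The call did not hold without SZC replicate 1 (log2 fold change 1.81, FDR 0.427 by edgeR's exact test). Over 9 other choices of test, filter and scaling the FDR of *DCN* ran from 0.00128 (DESeq2) to 0.312 (edgeR's quasi-likelihood test), and 7 of the 9 kept the call. The choices that lost it were the quasi-likelihood test without and with a replicate block.

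Biglycan is the close relative of decorin and shares its type of sugar chain. *BGN* was at 4017 and 4728 CPM in SZCs and at 8376 and 3018 CPM in DZCs. The DZC values lay on either side of the SZC values, with DZC replicate 1 the highest. Its zone difference on the log2 scale was -0.38 (SE 0.58, exact test in edgeR, FDR 0.999), and its 95% interval, from -1.51 to 0.75, includes changes of more than 1 log2 unit towards DZCs. Its sign changed under scaling by library totals (0.059) and without DZC replicate 1 (0.54). Without DZC replicate 2 the log2 fold change of *BGN* was -0.92.

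Within a library, the ratio of *DCN* to *BGN* counts does not depend on how libraries are scaled, although its level depends on transcript lengths. The log2 ratio was -1.97 and -2.82 in SZCs and -6.20 and -3.48 in DZCs. Both SZC libraries were above both DZC libraries, and the means differed by 2.45. The two-sided exact permutation p was 0.333, the smallest that 2 libraries against 2 can give, and the adjusted p was 0.778 over the 7 ratios computed. The ratios of *DCN* to *ASPN* and of *OGN* to *OMD* overlapped between zones.

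Asporin binds collagen and TGF-β and has a run of aspartate residues in place of a sugar chain attachment region. *ASPN* was at 18.2 and 88.1 CPM in SZCs and at 3.54 and 52.1 CPM in DZCs. In each zone replicate 2 was the higher library, and the zones overlapped. The log2 fold change of 0.93 had a standard error of 1.17, the largest of the 10 members, and a 95% interval from -1.37 to 3.23. Leaving out single libraries moved it from -0.62 (without SZC replicate 2) to 3.93 (without DZC replicate 2). The direction in *ASPN* thus rested on which libraries were kept.

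Of the class II members, fibromodulin, which binds fibrillar collagen and carries sulfated tyrosines, did not pass the test. *FMOD* was at 9210 and 7684 CPM in SZCs and at 9603 and 5668 CPM in DZCs. The highest and the lowest library were both from DZCs. Its log2 fold change was 0.15, with a 95% interval from -0.75 to 1.04 (exact test in edgeR, FDR 1).

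PRELP is a basic member that can link collagen to heparan sulfate chains near cell surfaces. *PRELP* was at 965 and 1130 CPM in SZCs and at 1458 and 1186 CPM in DZCs. The DZC libraries were above the SZC libraries, but by little. The log2 fold change was -0.34 with the smallest standard error of the members, 0.39, and an FDR of 0.981 by edgeR's exact test. Its 95% interval, from -1.09 to 0.42, leaves room for an increase of up to 0.42 in SZCs on the log2 scale. The log2 ratio of *PRELP* to *FMOD* was -3.25 and -2.77 in SZCs and -2.72 and -2.26 in DZCs, so that the zones did not overlap (exact two-sided permutation test, p = 0.333).

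Lumican competes with fibromodulin for a site on collagen. *LUM* was at 13.5 and 21.6 CPM in SZCs and at 4.79 and 67.8 CPM in DZCs. DZC replicate 1 was the lowest library and DZC replicate 2 the highest. On the log2 scale the zone difference was -1.05 (SE 1.04, exact test in edgeR, FDR 0.968). It was -1.95 without DZC replicate 1 and 1.90 without DZC replicate 2, so that the direction in *LUM* turned with the DZC library retained. The log2 ratio of *LUM* to *FMOD* was -9.41 and -8.48 in SZCs and -10.97 and -6.39 in DZCs, with the SZC values inside the range of the DZC values.

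Osteomodulin is an acidic member best known from bone. *OMD* was at 4.95 and 15.3 CPM in SZCs and at 7.40 and 33.1 CPM in DZCs. Replicate 2 was the higher library in each zone, as with *ASPN*. The log2 fold change of -1.0 had a standard error of 0.84 and an FDR of 0.922 by edgeR's exact test, and the 95% interval ran from -2.65 to 0.65. Without DZC replicate 1 the log2 fold change was -1.71 and without DZC replicate 2 it was 0.48.

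In class III, osteoglycin, also called mimecan, is a collagen-binding member found in many connective tissues. *OGN* was at 168 and 268 CPM in SZCs and at 146 and 325 CPM in DZCs. The DZC libraries enclosed the SZC libraries. Its zone difference on the log2 scale was -0.11, with a 95% interval from -1.13 to 0.90 (exact test in edgeR, FDR 1), and it changed sign under scaling by library totals (0.095).

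Epiphycan is a member largely restricted to cartilage. *EPYC* was at 32.6 and 8.96 CPM in SZCs and at 5.91 and 3.23 CPM in DZCs. Both SZC libraries were above both DZC libraries, though SZC replicate 2 lay nearer to the DZC libraries than to SZC replicate 1. The log2 fold change was 2.19, a 4.55-fold difference, with a standard error of 0.71. Its unadjusted p was 0.00384 and its FDR 0.1 by edgeR's exact test. *EPYC* passed in 4 of the 9 other choices, DESeq2 among them (FDR 0.0424, range 0.0319 to 0.434), and without SZC replicate 1 its log2 fold change fell to 0.97. With any of the other libraries left out the log2 fold change of *EPYC* lay between 1.83 and 2.84. The log2 ratio of *EPYC* to *DCN* was -4.98 and -6.23 in SZCs and -4.27 and -6.39 in DZCs, with the SZC values inside the DZC range.

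Chondroadherin, the class IV member, binds collagen and the α2β1 integrin on chondrocytes. *CHAD* was at 37.5 and 110 CPM in SZCs and at 292 and 269 CPM in DZCs. The DZC libraries were close together, while the SZC libraries differed 2.94-fold. On the log2 scale the zone difference was -1.92 (SE 0.56, exact test in edgeR, FDR 0.0373), with a 95% interval from -3.02 to -0.82. The call was lost without SZC replicate 1 (log2 fold change -1.34, FDR 1) and under scaling by library totals (-1.60, FDR 0.247, both by edgeR's exact test), a scaling that moved the median of the tested genes from -0.04 to 0.26. Over the 9 other choices its FDR ran from 0.0117 to 0.371, the latter in edgeR's quasi-likelihood test, and 6 kept the call. The log2 ratio of *CHAD* to *FMOD* was -7.94 and -6.12 in SZCs and -5.04 and -4.40 in DZCs, which did not overlap (exact two-sided permutation test, p = 0.333).

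**Figure D2:**
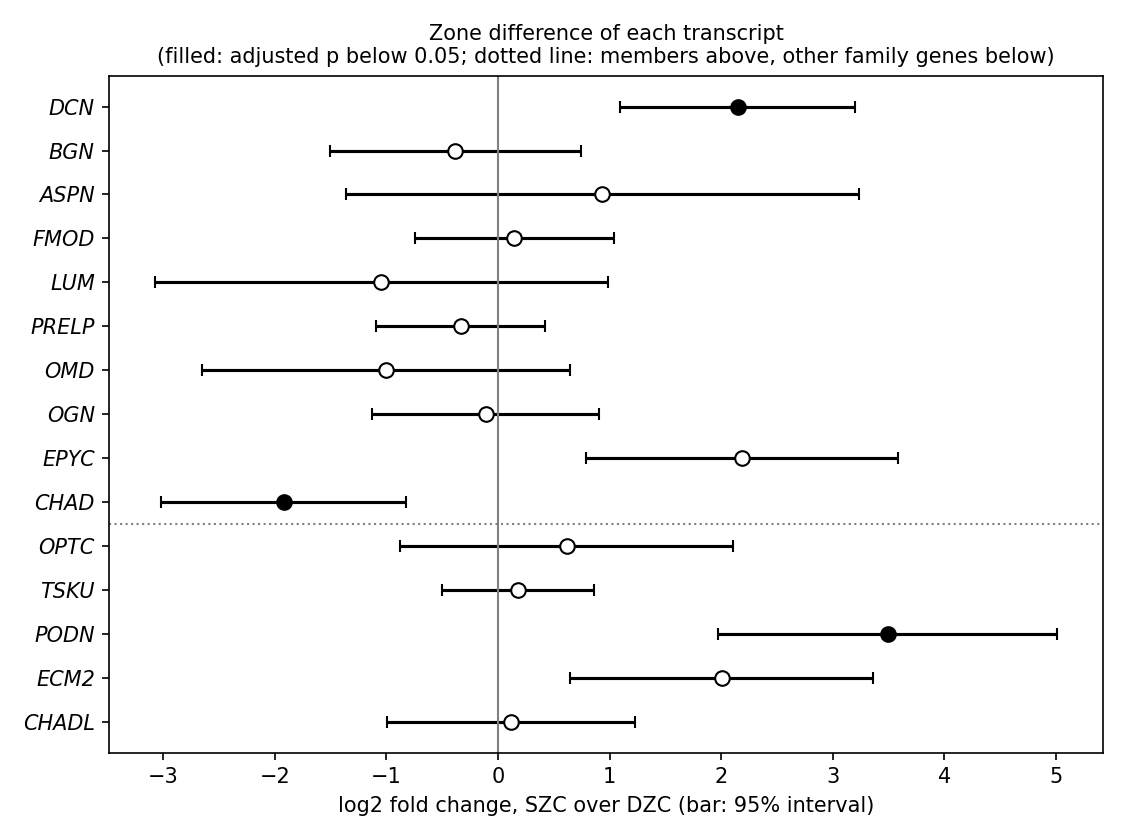
Log2 fold change of SZCs over DZCs (x axis) with its 95% interval for the 10 members (above the dotted line) and 5 other tested family genes (below it); filled points had an FDR below 0.05 in edgeR's exact test. *DCN* at 2.15 and *PODN* at 3.49 lie to the right and *CHAD* at -1.92 to the left, and intervals are widest for *ASPN* and *LUM*.

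Of the 8 other genes of the family in the table, 5 were tested, and 1 was called, beside 2.93% of all tested genes. Podocan, a member known from vascular and other connective tissue, had 91 and 205 counts in SZCs but 5 and 18 counts in DZCs. *PODN* had a log2 fold change of 3.49 (SE 0.77, exact test in edgeR, FDR 0.002), an 11.3-fold difference, and its FDR was 0.0557 and 0.443 without SZC replicates 1 and 2, respectively. *ECM2*, which encodes a matrix protein with leucine-rich repeats, was at 63.4 and 135 CPM in SZCs and 10.6 and 38.8 CPM in DZCs. The zones did not overlap, and its log2 fold change of 2.00 (standard error 0.69) had an FDR of 0.136 by edgeR's exact test. *ECM2* passed in 2 of the 9 other choices (FDR from 0.00924 to 0.488). Without DZC replicates 1 and 2 in turn its log2 fold change was 1.36 and 3.25. The log2 fold changes of *OPTC*, *TSKU* and *CHADL* were 0.62, 0.18 and 0.12, each with a 95% interval that includes 0. *KERA* and *NYX*, with at most 5 and 1 counts in any library, and *PODNL1*, with at most 29, were not tested.

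Several family genes are neighbours in the genome, which the choice of members did not use. On the RefSeq assembly ARS-UCD2.0, where the 18 family genes were matched by symbol, *EPYC*, *KERA*, *LUM* and *DCN* follow each other among protein-coding genes. So do *FMOD*, *PRELP* and *OPTC*, and likewise *OGN*, *OMD*, *ASPN* and *ECM2*. In the first of these rows the log2 fold changes were 2.19 for *EPYC*, -1.05 for *LUM* and 2.15 for *DCN*. In the last they were -0.11 for *OGN*, -1.0 for *OMD*, 0.93 for *ASPN* and 2.00 for *ECM2*. Only *DCN* of these 7 passed the test, and differences between neighbours were not tested. The genes *OGN*, *OMD*, *ASPN* and *ECM2* lie within or across the span of *CENPP* on that assembly, and *CHAD* overlaps *ACSF2*. Strand was not used in counting, so reads of exons that overlap could not be separated. *CENPP* had 22 and 37 counts in SZCs, compared with 7 and 58 counts in DZCs. *ACSF2* had 442 and 514 counts in SZCs, compared with 684 and 574 counts in DZCs.

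The libraries of a zone differed from each other in several members by more than the zones did. In DZCs, *ASPN* differed 14.7-fold and *LUM* 14.2-fold between replicates 1 and 2. Among the 10674 tested genes with at least 100 counts over both DZC libraries, 0.937% and 0.974% differed at least as much. In SZCs the largest such differences among members were 4.85-fold for *ASPN* and 3.63-fold for *EPYC*, reached by 0.399% and 0.806% of 11036 genes. *PRELP* differed least in SZCs (1.17-fold) and *CHAD* least in DZCs (1.09-fold). Replicate 2 was the higher library in both zones for *ASPN*, *LUM*, *OMD* and *OGN*, that is for 4 of the 10 members against 32.8% of the tested genes. Replicate 2 was the higher one for 50% of the tested genes in SZCs and for 51% in DZCs.

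**Figure D3:**
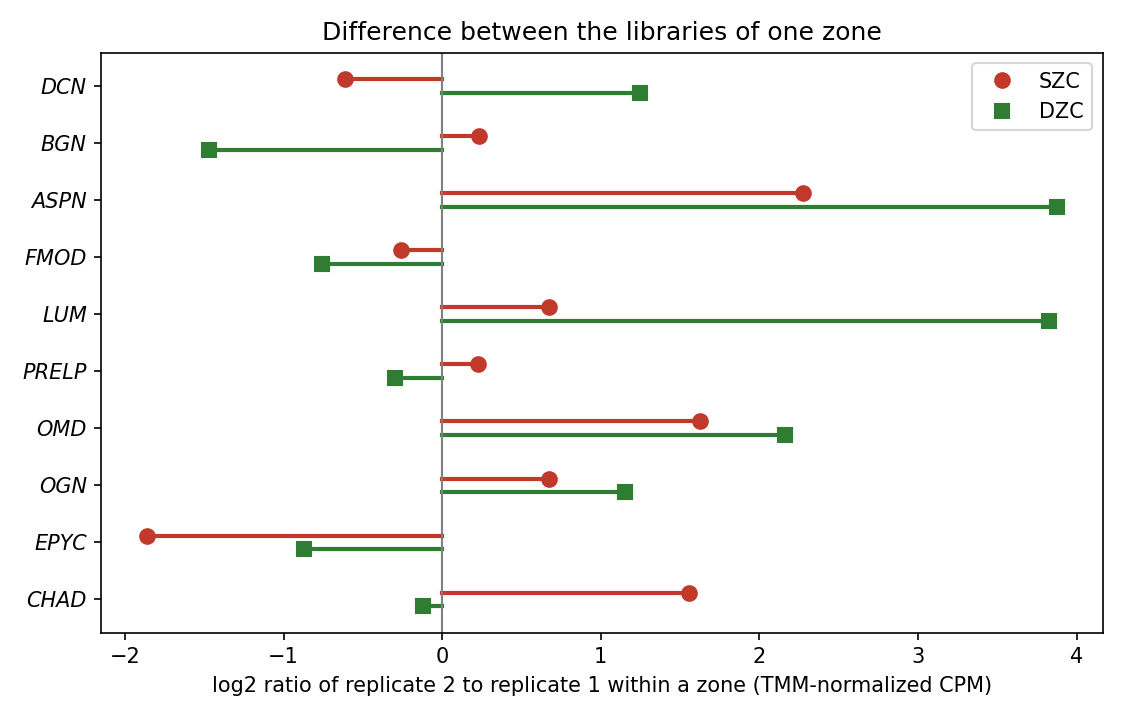
Log2 ratio of replicate 2 to replicate 1 (x axis, TMM-normalized CPM) within SZCs (red circles) and within DZCs (green squares) for each member. *ASPN* and *LUM* reach 3.88 and 3.82 in DZCs, whereas *EPYC* is lower in replicate 2 of both zones.

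Some markers of other cell types varied between libraries in part as *ASPN* or *LUM* did, and others of the same lists did not. The summed level of 8 genes of tendon or synovial fibroblasts was 4992 and 10350 CPM in SZCs and 2415 and 7108 CPM in DZCs, so that the libraries stood in the same order as for *ASPN*. Of the 8 genes, 4 stood in that order, namely *COL1A1*, *THY1*, *DPT* and, at low counts, *TNMD*, and 4 did not, namely *SCX*, *MKX*, *PDPN* and *PDGFRA*. That order requires replicate 2 to be higher in both zones, as in 32.8% of all tested genes. The share of all tested genes in the full order was not computed. *COL1A1* was at 3954 and 9200 CPM in SZCs and 1080 and 5718 CPM in DZCs. It made up most of the summed level in every library but DZC replicate 1. *PDPN* was at 491 and 452 CPM in SZCs and 1102 and 762 CPM in DZCs, and *MKX* at 35.2 and 35.9 CPM in SZCs and 54.0 and 52.5 CPM in DZCs. None of the 7 of these genes that were tested was called, and *TNMD*, a defining tendon gene, had at most 10 counts in any library. The summed level of 8 hypertrophic and bone genes was 110 and 104 CPM in SZCs and 19.1 and 270 CPM in DZCs, the lowest and the highest value falling on the libraries where *LUM* was lowest and highest. DZC replicate 2 stood apart in 5 of the 8. There *ALPL* had 445 counts, *IBSP* 268, *COL10A1* 221, *SP7* 140 and *MMP13* 468, whereas in no other library did any of them exceed 23. *SPP1*, which made up most of the sum, had 4477 counts there and 304 in DZC replicate 1, and *BGLAP* and *DMP1* had at most 6 and 2 in any library. Of the 8, 3 were tested and 0 called by edgeR's exact test, with 1 (*ALPL*) at an unadjusted p below 0.05. The summed haematopoietic list (5.09 and 11.2 CPM in SZCs, 2.74 and 5.73 CPM in DZCs) and the endothelial list (5.31 and 10.6 CPM in SZCs, 3.85 and 7.80 CPM in DZCs) stood in the order of *ASPN* too. Gene by gene, *PTPRC*, *CD68*, *CSF1R*, *PECAM1* and *CDH5* stood in that order, and *LYZ*, *CD3E*, *VWF*, *KDR* and *TEK* did not. *VWF* was at 2.22 and 3.23 CPM in SZCs and 3.36 and 4.48 CPM in DZCs. The lists had 0 of 2 and 0 of 4 tested genes called by edgeR's exact test, and *PTPRC* did not exceed 14 counts in any library. The part of other cells in these differences was not tested, and in bulk RNA fewer cells of a type and less RNA per cell cannot be told apart.

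**Figure D4:**
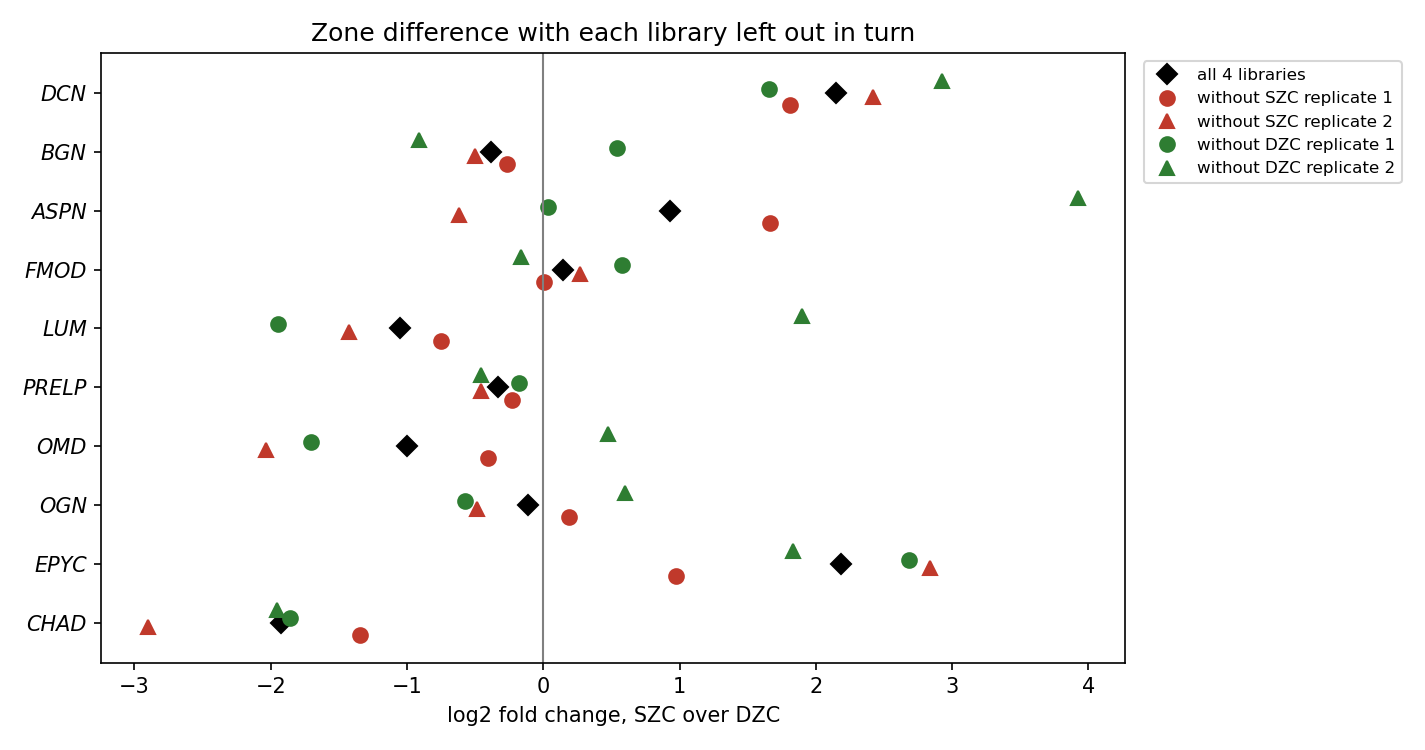
Log2 fold change of SZCs over DZCs (x axis) with the 4 libraries (black diamonds) and after removal of each single library (red for SZC, green for DZC, circles for replicate 1 and triangles for replicate 2). *DCN*, *EPYC*, *CHAD* and *PRELP* stay on their side of 0, whereas *LUM* ranges from -1.95 to 1.90.

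Together the 10 members took 1.71% of the counts in SZC replicate 1 (95% Wilson interval 1.71% to 1.72%) and 1.67% in SZC replicate 2 (1.67% to 1.68%). In DZCs the share was 1.47% (1.47% to 1.48%) for replicate 1 and 1.18% (1.17% to 1.18%) for replicate 2, intervals that cover counting error alone. The SZC shares were the higher pair (exact two-sided permutation test, p = 0.333). After removal of *COL2A1* counts the shares were 1.85% and 1.79% in SZCs and 1.95% and 1.35% in DZCs, and the zones overlapped.

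Likeness across the 4 libraries was measured by the Euclidean distance between log2 CPM values centred on each gene's mean. The closest pair of members was *FMOD* and *PRELP*, at a distance of 0.71, followed by *BGN* and *FMOD* at 0.73. *DCN* was nearest to *EPYC* (1.75), and its distance to *CHAD* was 4.73. Among the tested genes, the 5 nearest to *DCN* were *CA5B*, *NDP*, *GSDMD*, *SPON1* and the gene listed as ENSBTAG00000023338, at distances from 0.14 to 0.23. *SPON1* encodes a secreted matrix protein and was at 136 and 93.5 CPM in SZCs and 18.3 and 41.4 CPM in DZCs. The 5 nearest to *CHAD* were *ARHGEF37*, *CHGA*, *CLDN20*, *TMEM59L* and *GADD45G*, at distances from 0.19 to 0.35. None of them was called. In SZC replicate 1 *CLDN20* was at 0.045 CPM, below the level of 3 counts, and *ARHGEF37* and *CHGA* at 0.27 and 0.41 CPM. *GADD45G*, a stress-response gene, was at 9.76 and 30.1 CPM in SZCs and 58.3 and 61.8 CPM in DZCs.

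Small leucine-rich proteoglycans act on collagen fibrils, and 1 of 18 collagen genes was called, while 17 were not. Over all tested genes 2.93% were called. DESeq2 called 3 of the 18, adding *COL2A1* (higher in DZCs) and *COL5A3* (higher in SZCs). With a DZC library left out more of the 18 passed, and without DZC replicate 2 most did. These fits called more of all tested genes too. *COL14A1*, whose product binds to fibril surfaces and to decorin, was at 946 and 857 CPM in SZCs and at 111 and 209 CPM in DZCs. Its log2 fold change was 2.49 (SE 0.45, exact test in edgeR, FDR 2.74e-05), beside 2.15 for *DCN*. The median over the 18 genes was 0.83, with the SZC libraries above the DZC libraries in 9 genes and below them in 6, where 21% and 20.5% of all tested genes did so. The 6 were *COL2A1*, *COL9A1*, *COL9A2*, *COL9A3*, *COL11A1* and *COL11A2*, which form the cartilage type of fibril, and their log2 fold changes lay between -1.91 and -1.0 without passing the threshold.

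The enzymes that build and sulfate the chains of these proteins showed no call with the 4 libraries. Of 19 tested genes for the linker and for chondroitin or dermatan sulfate, 0 were called by edgeR's exact test, with 2 at an unadjusted p below 0.05, and 0 by DESeq2. *DSE*, which makes the dermatan form of the chain that decorin carries, was at 151 and 138 CPM in SZCs and 60.7 and 87.9 CPM in DZCs, a log2 fold change of 0.96 (exact test in edgeR, FDR 0.205). *B3GAT3*, which adds the last sugar of the linker, was the other gene below 0.05, at 68.0 and 63.7 CPM in SZCs and 167 and 86.9 CPM in DZCs, a log2 fold change of -0.95 (exact test in edgeR, FDR 0.418). Of 10 tested genes for keratan sulfate and tyrosine sulfation, 0 were called by either test, with 0 at an unadjusted p below 0.05 in edgeR's exact test. With a DZC library left out some genes of these lists passed, in fits that called more of all tested genes too.

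Among growth factors, receptors and integrins that bind family members, 2 of 12 tested genes were called, both higher in SZCs. Over all tested genes 2.23% were called higher in SZCs. *TGFB3*, a ligand of the TGF-β group that decorin and asporin bind, was at 66.1 and 48.6 CPM in SZCs and 24.4 and 25.7 CPM in DZCs. Its log2 fold change was 1.20 (SE 0.36, exact test in edgeR, FDR 0.0355). *ITGA2*, the α2 chain of the integrin that binds chondroadherin, was at 4.90 and 4.87 CPM in SZCs and 0.56 and 1.30 CPM in DZCs. Its log2 fold change was 2.37 (SE 0.68, exact test in edgeR, FDR 0.0291), a sign opposite to that of *CHAD*. Both of these calls were lost without either SZC library, with FDR values between 0.549 and 1 by edgeR's exact test. Over the 9 other choices the FDR of *TGFB3* ran from 0.0322 to 0.269, with 5 keeping the call, and that of *ITGA2* from 0.0217 to 0.299, with 4 keeping it. Both calls were lost in edgeR's quasi-likelihood test with a replicate block (FDR 0.0656 for *TGFB3* and 0.0584 for *ITGA2*). Of 9 tested proteases that cleave or process family members, 0 were called by edgeR's exact test, with 3 at an unadjusted p below 0.05. DESeq2 called 1 gene of this list, *MMP13*, which had 468 counts in DZC replicate 2 and 0 in each of the other libraries. With a DZC library left out, more of the ligands and receptors and some proteases passed. Those fits called more of all tested genes too.

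**Figure D5:**
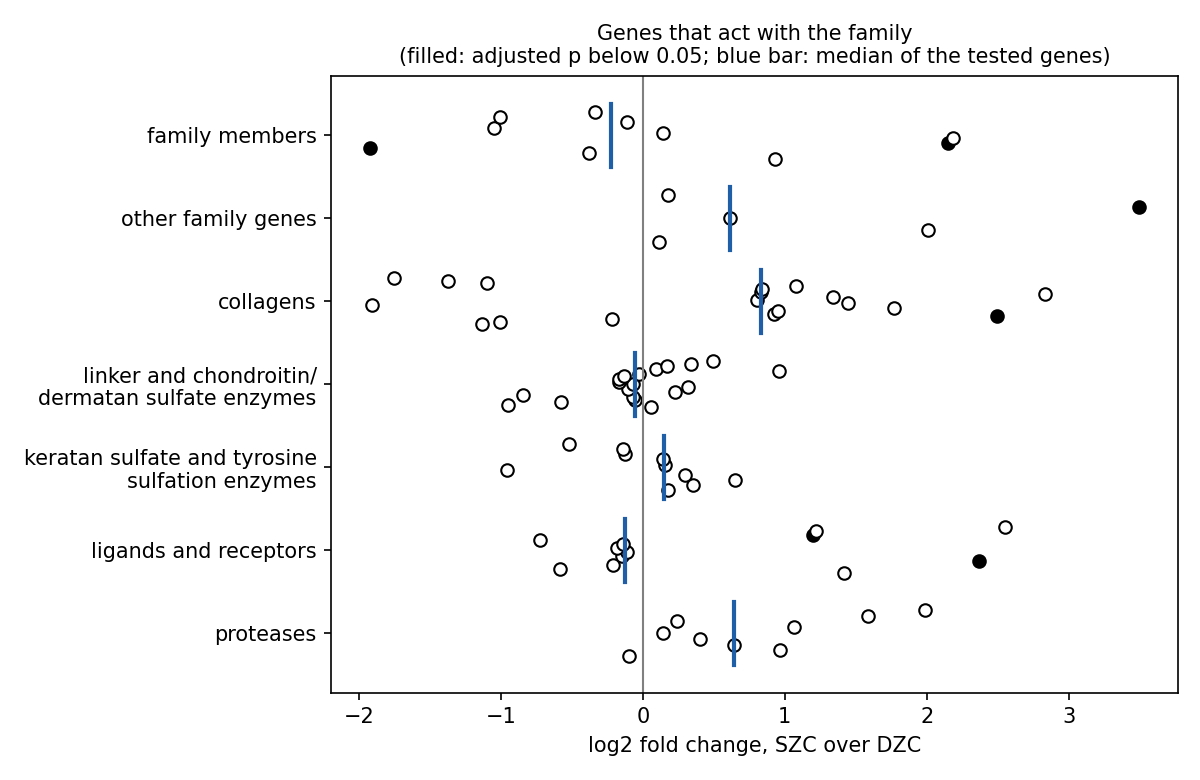
Log2 fold change of SZCs over DZCs (x axis) for each tested gene of the family and of 5 lists of genes that act with it; filled points had an FDR below 0.05 in edgeR's exact test and blue bars are list medians. The medians run from -0.22 for the members to 0.83 for the collagens, and the 6 filled points are *DCN*, *CHAD*, *PODN*, *COL14A1*, *TGFB3* and *ITGA2*.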

How the data were processed

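Per the study's methods, single-end RNA-Seq reads of SZCs and DZCs (low-input SMART-Seq v4 libraries) were aligned by the authors with STAR 2.5.2b to the bovine build UMD 3.1 (Ensembl 88) and summed per gene without regard to strand, and the deposited values are raw counts. A second deposited table holds the log2 fold changes and FDR values of the authors' own zone comparison. These were not used, and that table served only to fill 8 missing gene symbols. Build coordinates and sequences were not used here. The RefSeq assembly ARS-UCD2.0 gave gene order and overlaps alone.

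Genes were filtered with filterByExpr of edgeR 4.0.16 (R 4.3.3), counts were TMM-normalized, and SZCs were compared with DZCs by edgeR's exact test with Benjamini-Hochberg adjustment over 12857 genes. Positive log2 fold changes mean higher in SZCs. Standard errors follow from the negative binomial dispersion, 95% intervals are normal, and the common dispersion had a square root of 0.361. The procedure was tested on simulated data. Differences within zones exceeded counting noise (chi-square per degree of freedom 62.5 in SZCs and 304.8 in DZCs). With 2 libraries per zone p-values rest on the spread between these libraries, each gene's spread being drawn towards that of other genes. The sources do not say whether the libraries came from different animals.

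Alternatives were edgeR's quasi-likelihood test with and without a replicate block, DESeq2 1.42.0, other filters, scalings and dispersions, and leaving out each library. Named genes were the 10 members, other family genes, called genes of partner lists, markers, and the 5 genes nearest to the called members with the largest increase and decrease. *SPON1* and *GADD45G* were singled out among these, and *CENPP*, *ACSF2*, *DSE*, *B3GAT3* and the cartilage collagens were added, after their values were seen. The members and all gene lists were chosen with earlier results of these data known.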

Additional observations from a re-analysis of the deposited data

How the results depend on the processing

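Under edgeR's quasi-likelihood test, 0 of 12857 genes passed, 0 higher in SZCs and 0 higher in DZCs, although 1126 had an unadjusted p below 0.05. The exact test called 377 genes (287 and 90). Of the 10 members, 0 passed in the quasi-likelihood test in either direction, with 3 at an unadjusted p below 0.05. Scaling by library totals left 44 genes higher in DZCs, raised the share of calls higher in SZCs from 76.1% to 86.7%, and gave 2 members higher in SZCs and 0 higher in DZCs. Totals without *COL2A1* gave 1 member, with 0 higher in DZCs. DESeq2, and a common followed by a gene-wise dispersion, each gave 2 members higher in SZCs, *EPYC* being added. Over all genes, library totals called 332, totals without *COL2A1* 333, DESeq2 402, and the common followed by gene-wise dispersion 389. Scaling by totals also turned the log2 fold changes of *BGN* (0.059) and *OGN* (0.095). The difference in the share of counts taken by the members, 0.369 percentage points, was 0.166 after removal of *COL2A1*. The cause of these changes was not tested.

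Leaving out single libraries, with the lone library assumed to vary like the other zone, gave from 68 (without SZC replicate 1) to 2768 called genes (without DZC replicate 2), from 62 to 1656 higher in SZCs and from 6 to 1112 higher in DZCs. It gave from 0 to 6 members, from 0 to 4 higher in SZCs and from 0 to 3 higher in DZCs. Log2 fold changes that turned were those of *BGN* (-0.92 to 0.54), *ASPN* (-0.62 to 3.93), *FMOD* (-0.16 to 0.58), *LUM* (-1.95 to 1.90), *OMD* (-2.03 to 0.48), *OGN* (-0.57 to 0.60, with 0.19 without SZC replicate 1), *OPTC* (-0.29 to 1.17) and *CHADL* (-0.43 to 1.07, with -0.19 without SZC replicate 1). *DCN*, *PRELP*, *EPYC* and *CHAD* kept their sign in the 9 other choices and with each library left out, although *PRELP* came to -0.0024 under library totals.

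Libraries with the same replicate number deviated together (correlation 0.43 over 12857 genes), but with 2 pairs, and no statement that a number marks a shared core, animal or day, the numbers were not taken to pair the samples. With a replicate block, edgeR's quasi-likelihood test called 347 genes, 262 higher in SZCs and 85 higher in DZCs, and 2 members, *EPYC* (FDR 0.0319) and *CHAD* (FDR 0.0418), with *DCN* at an FDR of 0.062.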
